A study of Mus musculus with 10 samples.

Results

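Mitochondrial transcripts were followed here through the short fragments they left in small RNA libraries of day 6 mouse primordial germ cell-like cells (mPGCLCs) and of the cells around them. The members were the 37 genes of the GENCODE vM21 annotation (of 55450 in all) whose symbol starts with mt-: 2 ribosomal RNAs (rRNAs), 22 transfer RNAs (tRNAs) and 13 messenger RNAs (mRNAs). A read was given to a member when it had at least 18 nt and matched its transcript exactly in the sense direction. Levels are given as RPM, the reads of a member scaled to a library total of 1000000 reads. Reads were found for 35 members, and none for mt-Tf and mt-Tk, the tRNAs for phenylalanine and lysine.

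Male mouse embryonic stem cells (mESCs) were first turned into epiblast-like cells with bFGF and Activin A. These were grown for 6 days as embryoid bodies (EBs) with the cytokines BMP4, BMP8a/b, LIF, SCF and EGF. The EBs were sorted, and small RNA was sequenced in 10 libraries, 2 for each of 5 groups. E14 mPGCLCs and E14 non-PGCLCs came from E14, an mESC line of strain 129/Ola without a reporter. BG5 mPGCLCs and BG5 non-PGCLCs came from BG5, a line of mixed C57BL/6J/DBA/129 strain that carries a Blimp1-GFP reporter. SGET non-PGCLCs came from SGET, a line of B6CBA/129 strain with Stella-GFP and Esg1-tdTomato reporters, and the mPGCLCs of that line are not analysed here. The non-PGCLC libraries hold the surrounding EB cells. The mPGCLC and non-PGCLC libraries carry sample numbers from 2 separate ranges. Whether they were prepared or sequenced apart is not stated, and such a split could not be told apart from cell type. In the study's methods the mPGCLC gate was Ssea1 with Cd61 for E14 and Ssea1 with Blimp1-GFP for BG5, whereas the GEO protocol text gives the Stella-GFP and Esg1-tdTomato gate for every sample. Each line is a single mESC line, and nothing in the labels says that the 2 replicates of a group came from separate cultures, so that p-values measure only the spread between these libraries.

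Mitochondrial DNA is transcribed from both strands into long precursors in which tRNAs lie between the rRNAs and mRNAs. The tRNAs are cut out at their 5′ ends by RNase P and at their 3′ ends by Elac2, which frees the neighbouring transcripts, and Trnt1 then adds the bases CCA that the mitochondrial tRNA genes do not encode. The rRNAs mt-Rnr1 (12S) and mt-Rnr2 (16S) form the core of the mitochondrial ribosome, and the mRNAs encode subunits of the respiratory chain complexes and of ATP synthase.

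The libraries held 7421061 to 14444567 reads of 15 to 43 nt, of which 52.9% to 71.9% had at least 18 nt, so that 1 read was worth 0.0692 to 0.135 RPM. Over 2602 tested features the 2 libraries of a group correlated with a Pearson r of 0.585 to 0.661 (log2 scale, across features, which are not independent replicates). The 13 miRNA genes listed as markers of pluripotent and germ cells (12 with reads) summed to 44248 to 181564 RPM in mPGCLCs. They reached 74171 to 129479 RPM in E14 and SGET non-PGCLCs, and 5901 and 7032 RPM in BG5 non-PGCLCs. The 6 mesenchymal miRNA genes, all with reads, summed to 22004 and 13514 RPM in BG5 non-PGCLCs and to 197 to 1476 RPM in the other 8 libraries. The neural list (4 of 5 genes with reads) summed to 244 and 215 RPM in BG5 mPGCLCs and 42.3 and 53.8 RPM in BG5 non-PGCLCs, and to 0 to 206 RPM elsewhere. The muscle list (5 of 5) ranged from 0 to 53.5 RPM. The endothelial and blood list (3 of 6) summed to 87.5 and 63.0 RPM in BG5 mPGCLCs against 103 and 177 RPM in BG5 non-PGCLCs, and to 91.5 and 108 RPM against 5.52 and 49.7 RPM in E14. In each line 4 of the 5 lists were separated without overlap between mPGCLCs and non-PGCLCs, all except the muscle list in BG5 and the neural list in E14. In E14 the pluripotent and germ list was higher in mPGCLCs (181564 and 157686 against 107608 and 74171 RPM) and the mesenchymal list lower (405 and 414 against 1359 and 1430 RPM). In such bulk samples, fewer cells of a type and less RNA per cell cannot be told apart.

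The following sequences show the border at which the most abundant fragments began and the leading fragment of each of the members the results turn on. The first line below is the border between the tRNA for valine, mt-Tv, and mt-Rnr2 (GRCm38, chrM:1084-1113, plus strand), with the last 10 bases of mt-Tv in lower case and the first 20 bases of mt-Rnr2 in capitals. The next lines are the most abundant fragments of mt-Rnr2 (chrM:1094-1118) and of mt-Rnr1 (chrM:70-94). They are followed by the most abundant fragments of the serine tRNA mt-Ts2 (chrM:11613-11634), the leucine tRNA mt-Tl1 (chrM:2676-2697), both on the plus strand, the other serine tRNA mt-Ts1 (chrM:6921-6938) and the proline tRNA mt-Tp (chrM:15368-15387), both on the minus strand. The mt-Tp fragment is internal (positions 36 to 55 of the tRNA), and the other exact fragments begin at position 1. The last line is an mt-Tv fragment (its first 15 bases are chrM:1079-1093) with the added CCA in capitals. The leading fragments were ranked by their mean RPM over the 10 libraries. The mt-Rnr2 fragment was present in 10 libraries, that of mt-Ts2 in 7, those of mt-Rnr1, mt-Tl1 and mt-Ts1 in 4 each and that of mt-Tp in 3. The mt-Rnr1 fragment, with a mean of 36.9 RPM, held 233 RPM in BG5 mPGCLC replicate 2, 71.3 RPM in replicate 1, 59.7 RPM in E14 mPGCLC replicate 1 and less in SGET non-PGCLC replicate 1.
mt-Tv/mt-Rnr2 border: aacactctgaACTAATCCTAGCCCTAGCCC
mt-Rnr2 fragment: actaatcctagccctagccctacac
mt-Rnr1 fragment: aaaggtttggtcctggccttataat
mt-Ts2 fragment: aagaaagattgcaagaactgct
mt-Tl1 fragment: attagggtggcagagccaggaa
mt-Ts1 fragment: gagaaagacatataggat
mt-Tp fragment: gctggtggtggggagtagct
mt-Tv fragment with CCA: caatgaacactctgaCCA

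Mitochondrial fragments summed to 2117 and 1375 RPM in E14 mPGCLCs, 2205 and 1686 RPM in E14 non-PGCLCs, 1970 and 1328 RPM in BG5 mPGCLCs, 1174 and 999 RPM in BG5 non-PGCLCs, and 1289 and 2468 RPM in SGET non-PGCLCs. The rRNAs led in every library. They held from 57.4% (Wilson 95% interval 56.8 to 58.0) of the mitochondrial reads in SGET non-PGCLC replicate 2 to 78.7% (77.9 to 79.4) in BG5 non-PGCLC replicate 1. The tRNAs held 7.99% (7.55 to 8.46) to 21.4% (20.7 to 22.1) and the mRNAs 8.35% (7.85 to 8.88) to 28.7% (28.1 to 29.3). The E14 groups overlapped, with means of 1746 ± 524 RPM in mPGCLCs and 1946 ± 367 RPM in non-PGCLCs (SD, n = 2 each, as throughout). In BG5 both mPGCLC libraries stood above both non-PGCLC libraries, with means of 1649 ± 454 and 1087 ± 124 RPM. With 2 libraries against 2, an exact permutation test cannot go below p = 0.333, so that class totals were not tested.

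**Figure D1:**
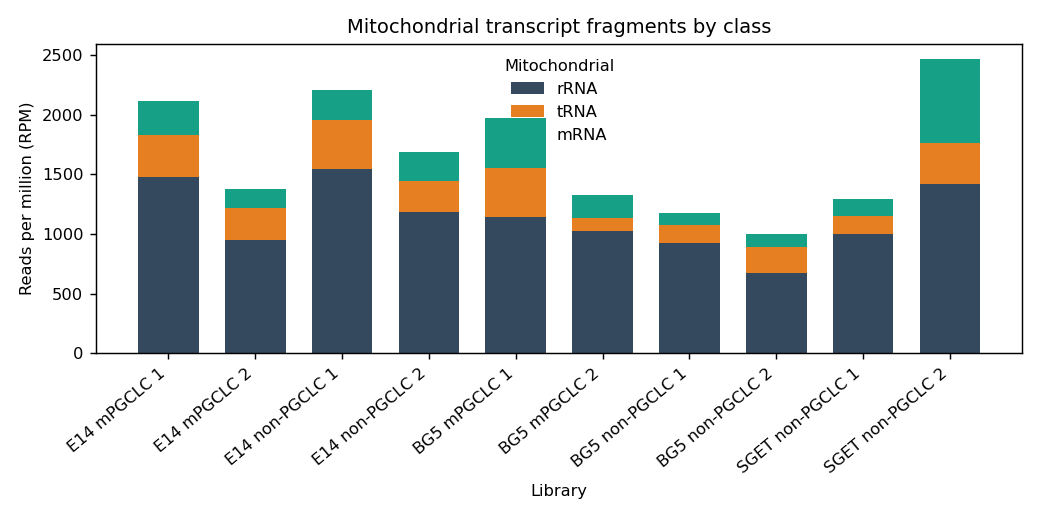
Stacked bars give the RPM of rRNA, tRNA and mRNA fragments in each of the 10 libraries, starting at 0. The rRNA part is the largest in every bar, from 676 to 1546 RPM, and the mRNA part of SGET non-PGCLC replicate 2 reaches 708 RPM.

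By class, the rRNA fragments averaged 1082 ± 81.5 RPM in BG5 mPGCLCs and 800 ± 175 RPM in BG5 non-PGCLCs, without overlap. The mRNA fragments of BG5 were 414 and 198 RPM in mPGCLCs against 98.1 and 110 RPM in non-PGCLCs, also without overlap, while the tRNA fragments (417 and 106 against 153 and 214 RPM) overlapped. The BG5 difference of means was 202 RPM for mRNAs and 282 RPM for rRNAs. The mRNA difference was 59.0 RPM without reads shared with other transcripts, 383 RPM with reads of at least 18 nt as the denominator, 94.3 RPM without BG5 mPGCLC replicate 1 and 310 RPM without BG5 mPGCLC replicate 2. The rRNA difference was 702 RPM with that denominator and 158 RPM without BG5 non-PGCLC replicate 2. In E14 all 3 classes overlapped between the groups. The pluripotent and germ, mesenchymal, neural, and endothelial and blood miRNA lists given above also differed without overlap between the BG5 groups, and their part in these differences was not tested.

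mt-Rnr2 (chrM:1094-2675, plus strand) was the most abundant member, with 834 RPM on average and 52.7 RPM per 100 nt of transcript. Its level was 1111 and 749 RPM in E14 mPGCLCs, 1150 and 839 RPM in E14 non-PGCLCs, 656 and 456 RPM in BG5 mPGCLCs, 794 and 468 RPM in BG5 non-PGCLCs, and 868 and 1250 RPM in SGET non-PGCLCs. The mPGCLC and non-PGCLC libraries of each line overlapped. SGET and E14 non-PGCLCs stood above both BG5 groups, and E14 mPGCLCs above BG5 mPGCLCs. The log2 change of mPGCLCs against non-PGCLCs was -0.10 ± 0.47 (SE) within E14 and -0.18 ± 0.48 within BG5, neither past the threshold (edgeR quasi-likelihood test, adjusted p = 1 and 0.987).

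Most of these reads began at the first base of mt-Rnr2, directly after the last base of mt-Tv. Reads from that base averaged 599.6 RPM, or 71.9% of the member, and made up 60.3% (Wilson 95% interval 59.0 to 61.6) of its reads in BG5 mPGCLC replicate 1 and 81.9% (81.2 to 82.6) in SGET non-PGCLC replicate 1, the lowest and highest libraries. They formed a nested family that shared its 5′ end and varied at its 3′ end. The 24 nt member averaged 156 RPM and the 25 nt member, printed above, 161 RPM, and no other length passed 56.2 RPM. In 9 of 10 libraries the family peaked at 24 or 25 nt, and in BG5 mPGCLC replicate 2 at 21 nt. The remaining mt-Rnr2 reads, 234 RPM on average, were spread over the transcript. Their next most used first base was position 2, with 18.99 RPM.

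**Figure D2:**
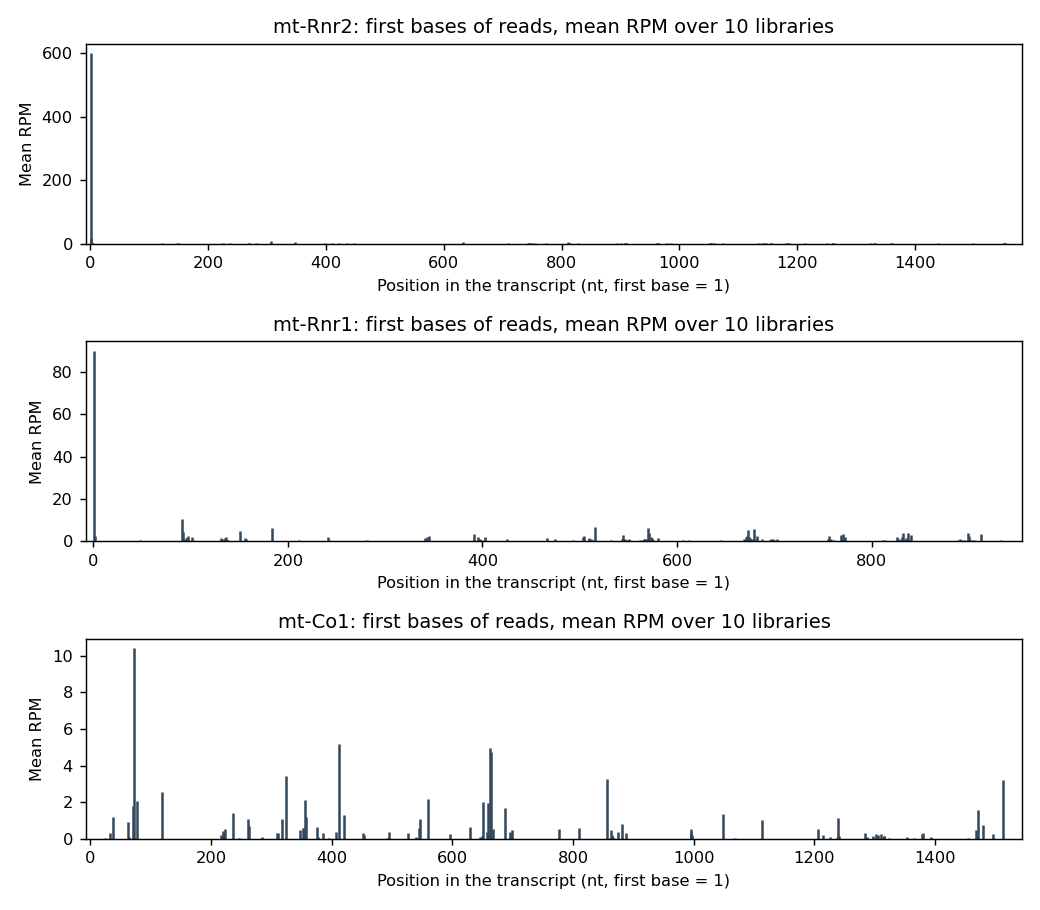
Vertical lines give the mean RPM of reads that begin at each position of mt-Rnr2, mt-Rnr1 and mt-Co1, counted from 1 at the first base of the transcript. Position 1 holds 599.6 RPM in mt-Rnr2 and 90.0 RPM in mt-Rnr1, whereas mt-Co1 reads begin at many positions and its highest, position 73, holds 10.4 RPM.

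mt-Rnr1 (chrM:70-1024, plus strand) averaged 299.8 RPM, or 31.4 RPM per 100 nt. Its level was 363 and 203 RPM in E14 mPGCLCs, 397 and 346 RPM in E14 non-PGCLCs, 483 and 568 RPM in BG5 mPGCLCs, 129 and 208 RPM in BG5 non-PGCLCs, and 135 and 166 RPM in SGET non-PGCLCs. The BG5 mPGCLC libraries were the highest of the 10, and the BG5 groups did not overlap. The log2 change within BG5 was 1.64 ± 0.70 (SE), with an adjusted p = 0.370 in the edgeR quasi-likelihood test, so that it did not pass the threshold. Within E14 the log2 change was -0.39 ± 0.68 (edgeR adjusted p = 0.992), and the difference between the line effects was 2.03 ± 0.97 (adjusted p = 0.531).

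The reads from the first base of mt-Rnr1 followed another pattern than those of mt-Rnr2. They reached 183 and 441 RPM in BG5 mPGCLCs and 132 and 31.8 RPM in E14 mPGCLCs. The levels were 15.6 and 16.5 RPM in BG5 non-PGCLCs, 1.35 and 36.2 RPM in E14 non-PGCLCs, and 43.0 and 0.205 RPM in SGET non-PGCLCs. The BG5 groups did not overlap and the E14 groups did. As a share of mt-Rnr1 reads, they ranged from 0.123% (Wilson 95% interval 0.034 to 0.449) in SGET non-PGCLC replicate 2 to 77.7% (76.6 to 78.7) in BG5 mPGCLC replicate 2. Intervals and floors cover counting error only, since copies made by PCR were not removed. This measure was chosen after its values were seen, and no test was made of it.

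Without the reads from position 1, the ratio of mt-Rnr1 to mt-Rnr2 reads was 1.02 ± 0.19 in BG5 mPGCLCs and 1.04 ± 0.55 in BG5 non-PGCLCs, and 1.04 ± 0.07 and 1.05 ± 0.25 in the E14 groups. With all reads it was 0.990 ± 0.36 in BG5 mPGCLCs and 0.304 ± 0.20 in BG5 non-PGCLCs, against 0.299 ± 0.040 and 0.379 ± 0.048 in the E14 groups. SGET non-PGCLCs had the lowest ratios, 0.144 ± 0.016 with all reads and 0.511 ± 0.106 without those from position 1. Thus BG5 mPGCLCs lay above all other groups with the position 1 reads, and without them they overlapped both E14 groups and BG5 non-PGCLCs and lay above SGET non-PGCLCs.

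**Figure D3:**
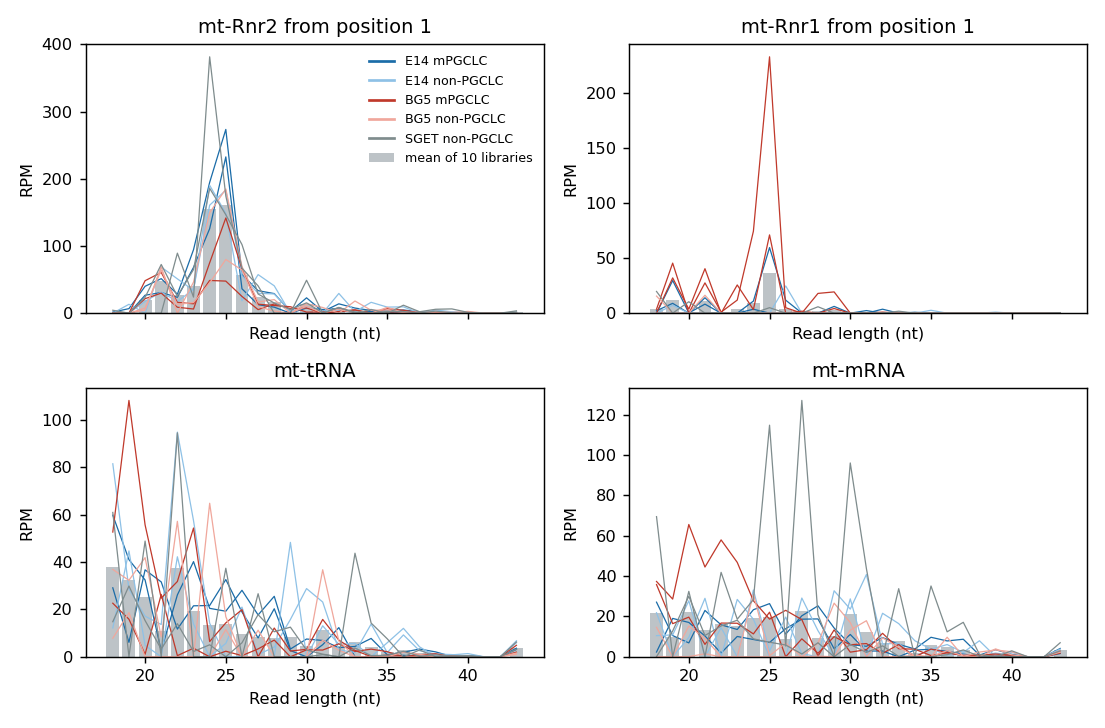
Grey bars give the mean RPM at each read length (nt) over the 10 libraries and coloured lines the single libraries, for reads from position 1 of mt-Rnr2 and mt-Rnr1, all tRNA fragments and all mRNA fragments. The mt-Rnr2 reads peak at 24 and 25 nt (156 and 161 RPM) in nearly every library, while the tRNA and mRNA lines peak at different lengths in different libraries.

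Reads of 24 or 25 nt made up 31.0% ± 7.36 of the mitochondrial reads per library (SD, n = 10). In the same libraries they made up 9.48% ± 1.61 of the reads that matched nuclear protein-coding genes (7287 to 16535 RPM in all) and 8.72% ± 4.70 of those that matched nuclear rRNA genes (575 to 1932 RPM). The mitochondrial share was higher in 10 of 10 libraries against both sets, by 21.5 and 22.3 percentage points. When the mt-Rnr2 reads from position 1 were left out, the mitochondrial share was 18.9% ± 11.4, higher than the protein-coding share in 8 of 10 libraries and higher than the nuclear rRNA share in 10. The lengths of 24 and 25 nt were chosen because the mitochondrial reads peaked there, so that these shares are a description and no test of them is given.

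The mt-Tv tRNA was low in exact matches, at 7.21 RPM on average, whereas fragments of its 3′ end with the added CCA were abundant. Reads that ended in the last base of mt-Tv followed by C, CC or CCA averaged 119.7 RPM, 97.4% of it with the full CCA, and each length from 18 to 28 nt held 3.07 to 19.1 RPM on average. The genome differs from CCA at 2 of the 3 bases there. These reads ended where the mt-Rnr2 family began. Their level was 119 and 184 RPM in E14 mPGCLCs, 144 and 35.1 RPM in E14 non-PGCLCs, 283 and 81.1 RPM in BG5 mPGCLCs, 102 and 23.8 RPM in BG5 non-PGCLCs, and 61.4 and 163 RPM in SGET non-PGCLCs. The mPGCLC and non-PGCLC libraries of each line overlapped, and these levels, which lie outside the exact match to the annotation, were not tested. mt-Tv was singled out after its values were seen.

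Among exact matches the tRNAs were led by mt-Ts2, the serine tRNA that reads AGY codons, with 70.6 RPM and 120 RPM per 100 nt, the highest level per length of all members. Its libraries held 101 and 50.6 RPM in E14 mPGCLCs and 47.0 and 45.4 RPM in E14 non-PGCLCs, which did not overlap. They held 99.9 and 30.6 RPM in BG5 mPGCLCs and 19.3 and 139 RPM in BG5 non-PGCLCs, which did, and 52.9 and 121 RPM in SGET non-PGCLCs. The log2 change over both lines was 0.22 ± 0.85 (SE, adjusted p = 1, edgeR quasi-likelihood test). Of its mean level, 91.7% (67.2% to 100% in single libraries) came from reads beginning at position 1, the annotated 5′ end of the tRNA.

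The proline tRNA mt-Tp, on the minus strand, averaged 61.8 RPM. It ranged from 21.8 RPM in BG5 mPGCLC replicate 2 to 96.9 RPM in E14 non-PGCLC replicate 1, and the mPGCLC and non-PGCLC libraries of each line overlapped. Its reads did not use the 5′ end: 0.020% of its level began at position 1, 52.7% began past the midpoint of the tRNA and 12.02% ran to the last encoded base. The glutamate tRNA mt-Te (14.7 RPM, 0.0692 to 33.0) also had few reads from position 1 (0.417%), and 68.3% began past its midpoint. Its E14 mPGCLC libraries, 27.7 and 14.5 RPM, lay below the E14 non-PGCLC libraries, 31.7 and 33.0 RPM, and its log2 change over both lines was -0.60 ± 1.70 (SE, edgeR adjusted p = 1).

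The leucine tRNA mt-Tl1, which lies just downstream of mt-Rnr2, averaged 34.1 RPM, with 89.9% of its mean level from position 1. In single libraries that share was 84.4% to 100% in 7 of the 10, whereas none of the 85 reads of BG5 non-PGCLC replicate 2 and 15.5% (Wilson 95% interval 11.7 to 20.4) of those of SGET non-PGCLC replicate 1 began there. Its libraries ran from 0.102 RPM in SGET non-PGCLC replicate 2, a single read, to 123 RPM in E14 non-PGCLC replicate 1. The glutamine tRNA mt-Tq averaged 16.9 RPM, 80.9% of it from position 1 (31.8% to 100% in single libraries), with a lowest level of 0.489 RPM in BG5 mPGCLC replicate 2. For both tRNAs the groups of each line overlapped.

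mt-Ts1, the serine tRNA that reads UCN codons, was the only one of the 28 members tested that passed the edgeR quasi-likelihood test in a comparison of cell types (DESeq2 called others, given further on), the one within BG5, in which 2.73% of all features passed. Its level was 49.0 and 5.96 RPM in BG5 mPGCLCs, while neither BG5 non-PGCLC library held an exact read. It was 15.5 and 14.7 RPM in E14 mPGCLCs, 5.66 and 54.1 RPM in E14 non-PGCLCs, and 10.6 and 35.6 RPM in SGET non-PGCLCs. The BG5 groups did not overlap, and the E14 groups did. The floor was taken as 3 reads per library, 0.317 RPM in the shallower BG5 non-PGCLC library. Against it, the lower BG5 mPGCLC library was at least 18.8-fold higher in exact reads, with counting error alone considered. The fitted log2 change, 11.15 ± 3.26 (SE), had an adjusted p = 0.0243 in the edgeR quasi-likelihood test and depends on how zeros are handled, so that it is no bound.

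The support for this call was narrow. Every exact mt-Ts1 read began at position 1, and only 11 distinct sequences were seen, 0 to 5 in a library. Reads with 1 mismatch to mt-Ts1 reached 5.61 and 0 RPM in BG5 non-PGCLCs and 45.9 and 12.1 RPM in BG5 mPGCLCs, so that 1 of the BG5 non-PGCLC libraries held near matches to this tRNA. The call was lost when any 1 of the 10 libraries was left out (adjusted p = 0.0637 to 1). It was also lost with no low-count filter (0.249), with a mean of at least 5 RPM (0.0608), in the fit of only the libraries compared (0.212), with reads of at least 20 nt (0.229) and without the longest reads (0.0923). It held under TMM scaling (0.0414), without shared reads (0.0252) and in DESeq2 (3.5e-05). The same 4 miRNA lists differed between these groups, and their part was not tested. The difference between the line effects was 12.14 ± 3.74 on the log2 scale (edgeR adjusted p = 0.0691) and did not pass.

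**Figure D4:**
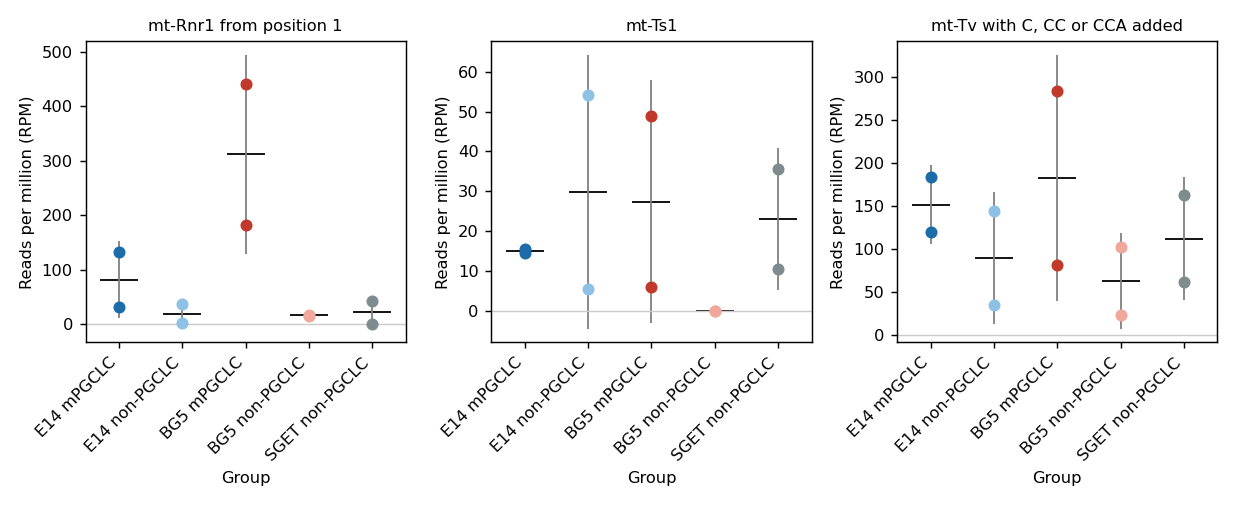
Points give single libraries, horizontal lines group means and vertical lines ± 1 SD (n = 2) of the RPM of mt-Rnr1 reads from position 1, of mt-Ts1, and of mt-Tv reads with C, CC or CCA added. For mt-Rnr1 the BG5 mPGCLC libraries are the highest (183 and 441 RPM), followed by E14 mPGCLC replicate 1 (132 RPM), both BG5 non-PGCLC libraries lie at 0 for mt-Ts1, and the mt-Tv libraries of each line overlap.

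Taken by strand, the 14 tRNAs on the plus strand (12 with reads) summed to 75.4 to 284 RPM and the 8 on the minus strand (all with reads) to 29.1 to 212 RPM. Per 100 nt this was 15.8 RPM on the plus and 21.2 RPM on the minus strand on average. The 13 tRNAs with reads other than those described above averaged 0.0124 to 11.3 RPM each. Of these, mt-Tr, the arginine tRNA, named after its values were seen, reached 54.1 RPM in BG5 mPGCLC replicate 1 and at most 1.33 RPM elsewhere.

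The mRNAs gave lower levels per length. Complex IV (mt-Co1 to mt-Co3) averaged 4.02 RPM per 100 nt, complex V (mt-Atp6, mt-Atp8) 3.41, complex III (mt-Cytb) 1.77 and complex I (mt-Nd1 to mt-Nd6 and mt-Nd4l) 1.397. This order rests on reads shared with transcripts outside the mitochondrial genes. Without them, a setting added after the data were seen, complex IV was at 0.923 RPM per 100 nt, complex V at 0.483, complex III at 1.72 and complex I at 0.968. The most abundant was mt-Co1, the catalytic subunit of cytochrome c oxidase, with 88.3 RPM on average. Its libraries held 132 and 45.5 RPM in E14 mPGCLCs, 62.5 and 79.3 RPM in E14 non-PGCLCs, 120 and 38.5 RPM in BG5 mPGCLCs, 11.1 and 26.8 RPM in BG5 non-PGCLCs, and 20.6 and 346 RPM in SGET non-PGCLCs. The BG5 groups did not overlap, and SGET non-PGCLC replicate 2 was the highest library. The log2 change over both lines was 1.196 ± 0.79 (SE, adjusted p = 0.544, edgeR).

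mt-Atp6, a subunit of ATP synthase, averaged 25.9 RPM. It held 33.0 and 11.2 RPM in E14 mPGCLCs, 32.1 and 11.5 RPM in E14 non-PGCLCs, 81.4 and 18.6 RPM in BG5 mPGCLCs, 0.106 and 1.25 RPM in BG5 non-PGCLCs, and 1.39 and 68.7 RPM in SGET non-PGCLCs. The log2 change within BG5 was 6.17 ± 2.30 (SE), with an adjusted p = 0.182 in the edgeR test and 0.0104 in DESeq2, which called it, and the 2 values of BG5 non-PGCLCs rest on 1 and 18 reads. mt-Co2 (24.1 RPM, 1.27 to 69.6) and mt-Nd2 (22.2 RPM, 1.63 to 36.4) completed the most abundant mRNAs. The BG5 groups did not overlap for mt-Co2 (35.9 and 9.97 against 1.27 and 7.96 RPM) and did for mt-Nd2.

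The mRNA levels carry a further limit. Reads that also matched transcripts outside the mitochondrial genes, among them nuclear copies of mitochondrial DNA, made up 56.5% of the mean mRNA level, 0.158% of the rRNA level and none of the tRNA level. All mt-Atp6, mt-Co2, mt-Co3, mt-Nd3 and mt-Nd4l reads and 68.5% of the mt-Co1 level were of this kind, whereas mt-Nd2 (8.59%), mt-Cytb (3.09%) and mt-Nd6 (4.58%) were nearly free of them. Nuclear copies outside the annotated transcripts were not searched. Without the shared reads the BG5 difference of the mRNA class, 202 RPM, was 59.0 RPM. Reads from position 1 made up 80.8% of the mt-Nd4l level, 58.2% of the mt-Atp8 level and 31.9% of the mt-Nd2 level, and at most 1.43% for the other 10 mRNAs.

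**Figure D5:**
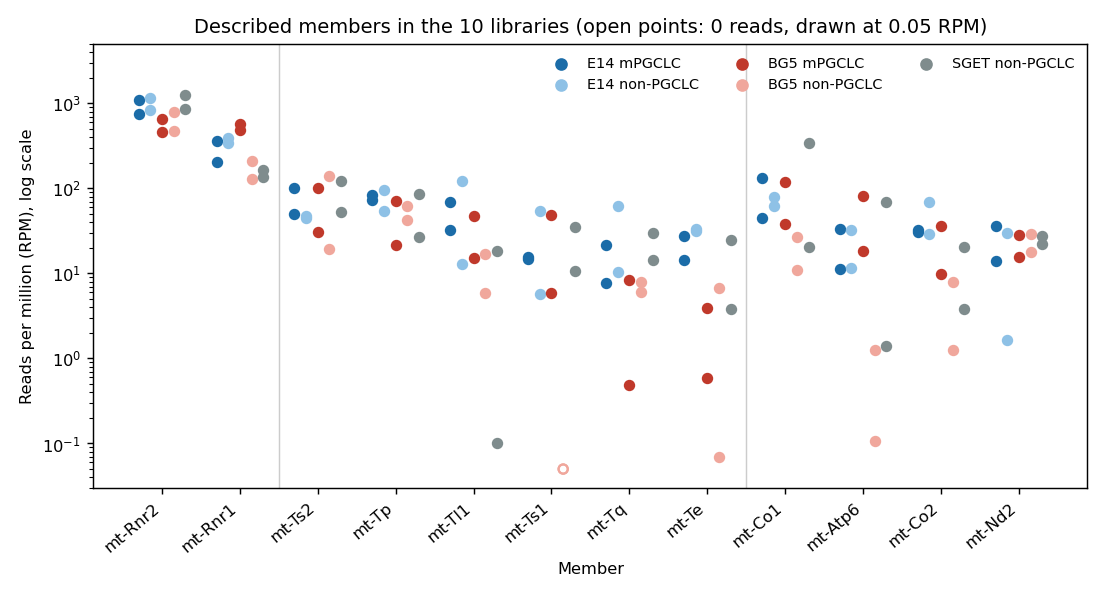
Points give the RPM (log scale) of the 12 members described in full in each library, coloured by group, with open points at 0.05 RPM for libraries without a read. mt-Rnr2 runs from 456 to 1250 RPM and mt-Rnr1 from 129 to 568 RPM, while mt-Atp6 spans 0.106 to 81.4 RPM.

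Across members, both mPGCLC libraries of BG5 exceeded both non-PGCLC libraries for 12 of the 28 tested members and were below them for 0. Among all 2602 tested features the shares were 16.5% and 10.1%. None of the 7 untested members with reads was separated in BG5. The 12 were mt-Rnr1, 4 tRNAs (mt-Tv, mt-Tc, mt-Ts1, mt-Th) and 7 mRNAs (mt-Co1, mt-Co2, mt-Co3, mt-Atp6, mt-Nd4l, mt-Nd5, mt-Nd6). mt-Tc was separated only by 1 and 2 reads (0.121 and 0.196 RPM) against none, under the floor of 3 reads. All reads of mt-Co2, mt-Co3, mt-Atp6 and mt-Nd4l, 68.5% of the mt-Co1 level and 32.6% of the mt-Nd5 level came from sequences that also match transcripts outside the mitochondrial genes. In E14 the mPGCLC libraries were higher without overlap for 4 of the 28 (mt-Ts2, mt-Atp8, mt-Nd4l and mt-Nd6) and lower for 5 (mt-Te, mt-Tl2, mt-Nd1, mt-Nd4 and mt-Nd5), against 16.4% and 7.76% of all tested features. No test was made of these counts.

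Only mt-Nd4l and mt-Nd6, subunits of complex I, were higher in mPGCLCs without overlap in both lines, 2 of the 28 beside 4.42% of all tested features. mt-Nd4l held 20.2 and 7.95 RPM in E14 mPGCLCs against 1.21 and 0.775 RPM in E14 non-PGCLCs, and 35.9 and 20.5 against 2.22 and 1.59 RPM in BG5, all of it from reads that also match other transcripts. mt-Nd6, the only mRNA encoded on the minus strand, held 5.92 and 0.870 RPM against no read in E14, and 9.45 and 8.31 against 1.48 and 0.208 RPM in BG5. Their log2 changes over both lines, 3.84 ± 2.05 and 5.76 ± 3.67 (SE), had adjusted p-values of 0.411 and 0.519 in the edgeR test, and of 0.00283 and 0.0271 in DESeq2, which called both. They were named after their values were seen. The pluripotent and germ list was higher and the mesenchymal list lower in mPGCLCs of both lines as well, and their part was not tested.

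In the test over both lines, 3.19% of the 2602 features passed and 0 of the 28 mitochondrial features that had enough reads for the test. At an unadjusted p under 0.05 there were 2 of the 28 (mt-Ts1 and mt-Atp6) in edgeR, beside 11% of all features. DESeq2 called 10.7% of the features it gave an adjusted p, and 4 of 26 members (mt-Nd4l, mt-Nd6, mt-Ts1 and mt-Tr, with nearly all mt-Tr reads in 1 library). The median log2 change of the 28 was 0.58, beside 0.61 for all features. Within E14, 0.5% of all features passed and 0 of the 28 mitochondrial ones, with 0 at an unadjusted p under 0.05, beside 4.38% of all features. DESeq2 called 6.12% of features and 1 of 25 members (mt-Nd5). Within BG5, 2.73% of all features passed and 1 of the 28, mt-Ts1, with a median log2 change of 1.17 for the 28 and 0 for all features. At an unadjusted p under 0.05 there were 3 of the 28 (mt-Ts1, mt-Atp6 and mt-Rnr1), beside 7.49% of all features, and DESeq2 called 13.7% of features and 5 of 25 members (mt-Ts1, mt-Tr, mt-Tv, mt-Atp6 and mt-Nd4l).

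The effects of the lines differed for 1.54% of all features and for 0 of the 28, with 3 at an unadjusted p under 0.05 (mt-Ts1, mt-Atp6 and mt-Rnr1) in edgeR, beside 7.46% of all features. DESeq2 called 9.13% of features and 3 of 26 members (mt-Ts1, mt-Tr and mt-Nd5). Between the non-PGCLC groups of E14, BG5 and SGET, 6.15% of all features differed in the F test and 1 of the 28, mt-Ts1 (adjusted p = 0.0425, edgeR). At an unadjusted p under 0.05 there were 3 of the 28 (mt-Ts1, mt-Co1 and mt-Atp6), beside 13% of all features, and DESeq2 called 16.6% of features and 1 of 25 members (mt-Ts1, adjusted p = 0.00266). The edgeR call was lost when any 1 library was left out, under TMM scaling, under both other filters and in the fit of only the libraries compared. It shares with the mt-Ts1 call within BG5 the BG5 non-PGCLC libraries, neither with an exact mt-Ts1 read, so that these calls are not independent. The 28 had passed a filter on low counts, and the 7 other members with reads averaged 0.0124 to 2.18 RPM.

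The spread between replicates was wide for the smaller members. Where both libraries of a group held reads, the higher exceeded the lower by a median of 1.44 times for the rRNAs, 3.09 times for the tRNAs and 2.85 times for the mRNAs, beside 2.05 times for the other tested features. In 26 cases only 1 library of a group held any read of a member.

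The nuclear genes that serve mitochondrial RNA were little represented in these small RNA libraries. Of 21 listed genes of mitochondrial RNA synthesis and processing, 11 had reads and 2 enough for the test, Rpph1, the RNA subunit of nuclear RNase P, and the helicase gene Supv3l1. None of the 5 comparisons called either in edgeR or DESeq2, with 0 at an unadjusted p under 0.05. Of 88 nuclear genes of oxidative phosphorylation, 34 had reads, 9 were tested and 0 were called, with 0 at an unadjusted p under 0.05 and 0 calls in DESeq2 in each comparison. Their summed level, 19.4 to 162 RPM, was led by Ndufs7 with 68.4 RPM on average.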

How the data were processed

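The deposited files hold, for each library, the distinct read sequences and their raw counts. To make them the authors, according to the methods and the processing notes in the labels, trimmed adapters with cutadapt 3.2 and removed the random bases beside them (low-input NextFlex kit). They kept reads from 15 nt upwards, aligned them end to end on GRCm38 using STAR 2.5.3a with up to 2 mismatches, and collapsed what mapped into counts without removing PCR copies. Here reads of at least 18 nt were matched exactly, in sense, to GENCODE vM21 transcripts. Of 874760 distinct reads, 42595 matched a transcript and 1925 a mitochondrial one, and a feature was the set of genes a read matched, except that a read matching a mitochondrial gene was given to that gene alone. Counts were tested with edgeR 4.0.16 (quasi-likelihood, R 4.3.3), with 5 group means, the file total of 7421061 to 14444567 reads as library size, filterByExpr (2602 of 10412 features kept) and Benjamini-Hochberg adjustment over all features at 0.05. Python 3.11.15 and scipy 1.17.1 gave intervals and the smallest exact p. DESeq2 1.42.0, other scalings, filters, read sets and left-out libraries were the alternatives. Described in full were both rRNAs, the 6 tRNAs and the 4 mRNAs with the highest mean RPM. The members, lists and tests were chosen with earlier results of these data known. Coordinates are those of the annotation, on GRCm38 and counted from 1.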

Additional observations from a re-analysis of the deposited data

Results flagged for a closer look

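A pair of signals lay outside the exact sense matches that the comparisons used. Reads of mt-Tv that end in C, CC or CCA not encoded in the genome averaged 119.7 RPM over the 10 libraries and were present in 10 of 10, with 23.8 to 283 RPM. Reads antisense to annotated mitochondrial genes averaged 90.1 RPM over 227 distinct sequences, also in every library, from 9.42 RPM in BG5 non-PGCLC replicate 2 to 228 RPM in SGET non-PGCLC replicate 2. By group the antisense reads were 119 and 121 RPM in E14 mPGCLCs against 74.7 and 56.5 RPM in E14 non-PGCLCs, and 93.4 and 60.9 RPM in BG5 mPGCLCs against 31.5 and 9.42 RPM in BG5 non-PGCLCs. The mPGCLC libraries were thus higher without overlap in both lines, while SGET non-PGCLCs held 106 and 228 RPM. The pluripotent and germ miRNA list was also higher and the mesenchymal list lower in mPGCLCs without overlap in both lines, and their part was not tested. No test was made, and 2 libraries against 2 cannot reach an exact p below 0.333. In every library both signals lay above the limit that 0 reads allow, which is 3 reads or 0.208 to 0.404 RPM.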

How the results depend on the processing

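With edgeR and total-read scaling, 83 features were called over both lines, 13 within E14, 71 within BG5, 40 for the difference between the lines and 160 between the non-PGCLC lines. DESeq2 called 171, 79, 177 and 127 of the first 4. Requiring a mean of at least 5 RPM gave 52 over both lines, 3 within E14 and 13 for the difference, which no low-count filter set at 24. Fitting only the libraries compared gave 1 within E14, 21 within BG5 and 81 between the non-PGCLC lines. Leaving out 1 library gave 42 to 71, 8 to 24, 44 to 67, 17 to 35 and 100 to 139, from fits in which a lone sample is assumed to vary like the other groups. Of the mitochondrial features DESeq2 called 4 over both lines, 1 within E14, 5 within BG5 and 3 for the difference, which had 1 with only the libraries compared. The single call within BG5, mt-Ts1, went to 0 with no low-count filter, at 5 RPM, with only the libraries compared, with reads of at least 20 nt and without the longest reads, and to 0 whichever library was left out. The call between the non-PGCLC lines went to 0 in the same settings, under TMM scaling and with the replicate block.

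The replicate numbers did not pair the samples (correlation of deviations -0.0209 in E14 and -8.46e-05 in BG5). With the replicate block 25 features were called within E14, and within BG5 mt-Rnr1 (log2 change 1.67, adjusted p = 0.0283, edgeR) took the place of mt-Ts1 (10.51, adjusted p = 0.0975).

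Over both lines the sign turned for mt-Ts2 under TMM scaling (-0.045) and DESeq2 (-0.24), for mt-Te with the replicate block (0.10) and for mt-Nd2 under DESeq2 (-0.088) and with reads of at least 20 nt (-0.12). Leaving out 1 library gave log2 changes of -0.31 to 0.077 for mt-Rnr2 (-0.41 to 0.16 within E14, -0.51 to 0.25 within BG5), -0.33 to 1.24 for mt-Ts2, -0.61 to 0.25 for mt-Tp, -0.00085 to 1.71 for mt-Tl1, -1.56 to 2.09 for mt-Te and -0.16 to 1.92 for mt-Nd2. None of these was called, and the cause was not tested. The BG5 differences of class means, 563 RPM for all, 282 for rRNA and 202 for mRNA, were 1254, 702 and 383 with reads of at least 18 nt as the denominator, a smaller total, and the mRNA difference was 59.0 without shared reads. Leaving out 1 library gave 242 to 884 for all, 158 to 406 for rRNA, -76.9 to 234 for tRNA and 94.3 to 310 for mRNA in BG5, and -571 to 171, -414 to 108, -99.0 to 52.5 and -84.9 to 37.8 in E14. With 2 libraries a group and few distinct sequences for most members, small differences were not detectable.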

Other observations

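Beyond mt-Tv, 13 other tRNAs had reads with added C, CC or CCA. All tRNAs together summed to 23.8 to 343 RPM of such reads, of which mt-Tv gave 73.1% of the mean. The next were the glycine tRNA mt-Tg with 10.9 RPM, mt-Tp with 10.1 RPM and the tryptophan tRNA mt-Tw with 7.25 RPM. The phenylalanine tRNA mt-Tf, without an exact read, had 0.881 RPM of them in 2 libraries.

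The antisense reads had their highest means opposite mt-Cytb (20.6 RPM, 0 to 114) and mt-Nd5 (18.4 RPM, 0.404 to 35.9), 2 mRNAs of the plus strand. Those of mt-Nd5 comprised 59 distinct sequences in 10 libraries, and those of mt-Cytb 26 in 9. Sense reads that cross a border between neighbouring genes were rare, at 11.9 RPM on average over 21 sequences. Reads across the border of mt-Tv and mt-Rnr2, printed above, averaged 0.839 RPM, beside 599.6 RPM that begin at it. Reads with 1 mismatch to a mitochondrial transcript averaged 224 RPM over 3139 distinct sequences, with 118 RPM for rRNA, 62.3 RPM for tRNA and 42.8 RPM for mRNA.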
